A study of Saccharomyces cerevisiae with 36 samples.

Results

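The 6 peptides described here are numbers 5 and 6 of the 3 coiled-coil peptide series in this yeast two-hybrid study: Jerala_P5 and Jerala_P6, P5A and P6A, and N5 and N6. They were chosen by name in every count matrix that holds them, 6 of the 745 proteins in the whole series. Jerala_P5 and Jerala_P6 were present in 5 pools of proteins, and the other 4 peptides in 2 of these pools. Each matrix lists how often the barcodes of a row protein and a column protein were read together, so that every pair occurs in both orders. Pairs are written row first, as "Jerala_P5 with Jerala_P6". Which side is the DNA-binding fusion is not given in the sources used here.

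A coiled coil is a bundle of helices wound around each other, built on a repeat of 7 residues. Hydrophobic residues at the repeat's a and d positions form the core, while charged residues at e and g, and asparagines in the core, set which helices pair and which do not. Peptide sets in which an odd-numbered peptide is designed to pair with the following even number, and with no other, are used as orthogonal building blocks. What the letters A and N stand for in the names of the other series, and the amino acids of the peptides, are not given in the sources used here. In a two-hybrid assay, 2 fusion proteins that bind each other switch on a reporter, here HIS3, whose enzyme is needed to make histidine. Yeast carrying a binding pair then grows without histidine, and 3-aminotriazole (3-AT), an inhibitor of that enzyme, raises the level of reporter that growth requires.

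All libraries came from 1 Saccharomyces cerevisiae strain, MATa, whose reporter is leu2::pGAL6z-HIS3. The strain further carries ura3-52, trp1, his3-delta, leu2-delta200, can1, GAL, pep4::BleoMX, prbd1.6R and AGA1::GAL1-AGA1::URA3. Libraries called His+ were taken before selection, and those called His- after growth without histidine. The NCIP pool holds the 12 Jerala_P peptides and was selected at 2 mM and at 10 mM 3-AT, with 2 biological replicates of each group. Its library before selection was the sample of 24 h outgrowth in replicate 1, and in replicate 2 the outgrowth time is not given. The Coiled pool joins several design series, with 18769 ordered pairs, was selected at 1 mM, and had 2 biological replicates, each sequenced in 2 technical runs that were summed. The NICP and mALb T pool (38 proteins), the AnBn, NICP, N and PA pool (38 proteins) and the mALb R pool (86 proteins) were selected at 1 mM and had 1 library per condition. These concentrations are those of the sample descriptions, whereas the growth protocol shared by all samples gives 3 mM. Libraries held 327863 to 477199 reads in the NCIP pool and 14428752 to 22515090 in the Coiled pool.

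Each protein is read through a designed barcode of 20 bases. The 6 barcodes are shown because every value below counts them, and their distance from each other bears on whether members could be misread as one another.

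Jerala_P5: acatgtatccctcaggtttc
Jerala_P6: ttaagacgaactgccacagc
P5A: gagccgacggacatgccatt
P6A: gtttggctggaatgacgagc
N5: tactgtatgttaagcttggc
N6: aatggaacgctccggttctg

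Each member had 1 barcode, the same in every map used. The nearest barcode of another member differed at 12 to 14 positions, and the nearest of all 154 proteins in the map of the Coiled pool at 9 or 10.

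The first question was whether a peptide 5 pairs with a peptide 6 of another series as it does with that of its own. In the Coiled pool all 9 combinations of a 5 with a 6 were enriched after selection in both orders and both replicates. The measure used throughout is the log2 enrichment, the log2 of the reads (plus 1) as a share of the library after selection over the same share before. The 6 ordered pairs within a series had a median of 3.99 and the 12 ordered pairs between series a median of 4.62. The median of all 15285 pairs with at least 10 reads before selection in both replicates was -2.38. The 18 pairs together made up 0.156% and 0.14% of the reads before selection and 3.12% and 3.51% after it. All 18 lay above 0 in both replicates, as did 6.08% of all pairs in the pool. Other ordered pairs of an odd peptide with its even neighbour were high there too. The 12 of the Jerala_P series had means from 2.91 to 6.07. Among them Jerala_P6 with Jerala_P5 took place 7 and Jerala_P5 with Jerala_P6 place 8. The 6 of the N series ran from 2.79 to 5.15 and the 4 of the PA series from 4.72 to 5.05.

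**Figure D1:**
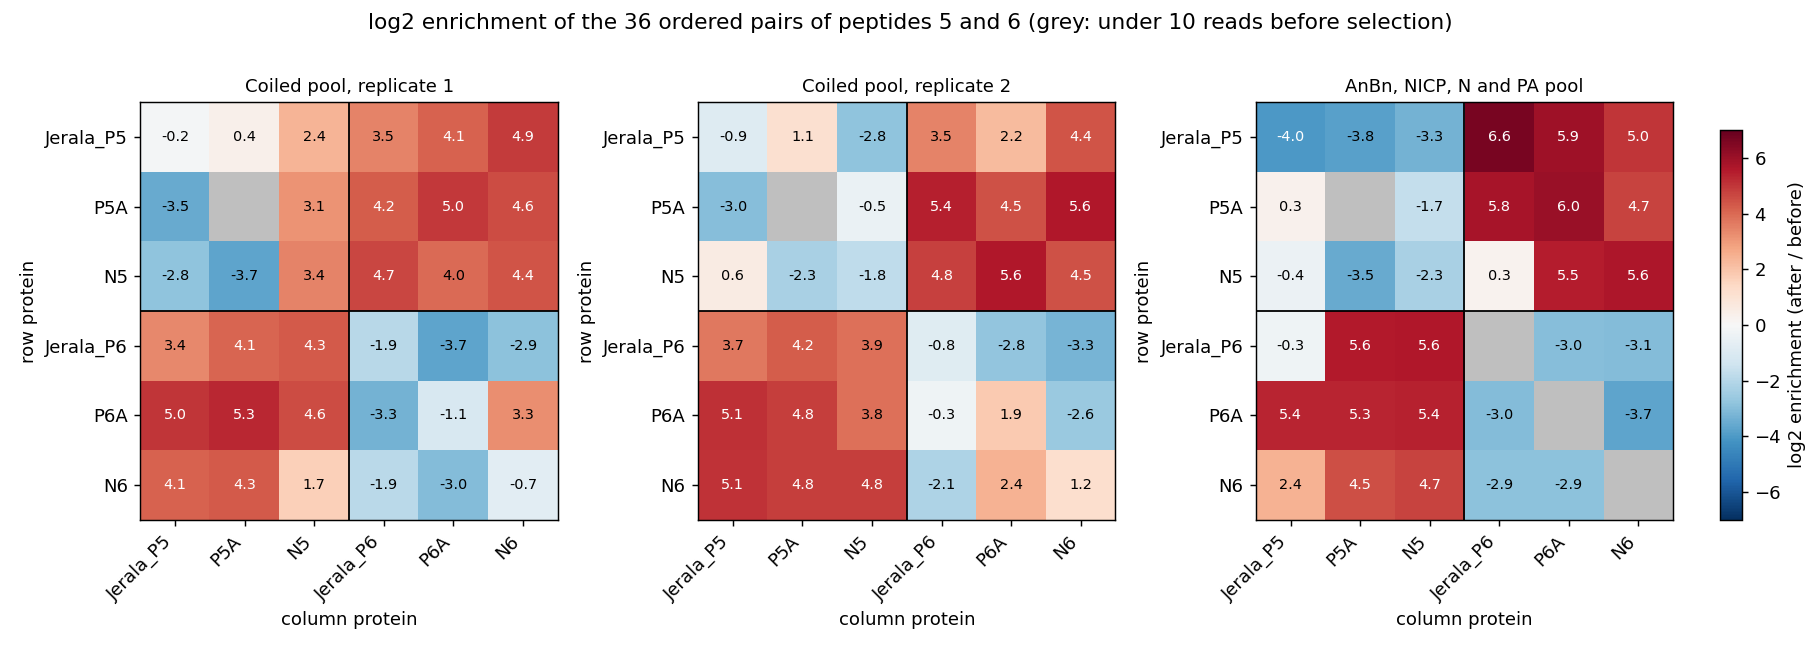
Log2 enrichment of the 36 ordered pairs, with the row protein on the y axis and the column protein on the x axis, in both replicates of the Coiled pool and in the AnBn, NICP, N and PA pool. The blocks of a 5 with a 6 (upper right and lower left) are red in all 3 panels, apart from values near 0 for Jerala_P6 with Jerala_P5 and N5 with Jerala_P6 in the last one.

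The pair of the Jerala_P series was the most even of the 3. Jerala_P5 with Jerala_P6 went from 2961 to 24410 reads in replicate 1 and from 1474 to 20355 in replicate 2, log2 enrichments of 3.49 and 3.48. Jerala_P6 with Jerala_P5 went from 2919 to 22101 and from 1800 to 29168 reads, log2 enrichments of 3.37 and 3.72. The 4 values ran from 3.37 to 3.72, and the 2 orders overlapped.

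The PA pair was higher. P5A with P6A went from 1205 to 27468 reads in replicate 1 and ended at 28222 in replicate 2, log2 enrichments of 4.96 and 4.48. P6A with P5A went from 1935 to 53995 and from 1114 to 39612 reads, log2 enrichments of 5.25 and 4.85. Averaged over both orders, the PA pair stood at 4.89 ± 0.31 (SD, n = 2) and the Jerala_P pair at 3.52 ± 0.12 (SD, n = 2), with no overlap between the replicates of the 2 pairs. Both pairs were read in the same 2 replicates, which are too few for an exact test, so no test of this difference was made.

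The N pair was the least even. N5 with N6 gave log2 enrichments of 4.40 and 4.47 in replicates 1 and 2, from 1281 to 19854 and from 715 to 19554 reads. N6 with N5 gave 1.69 in replicate 1, from 1361 to 3206 reads, but 4.84 in replicate 2, from 697 to 24709 reads. Both technical runs showed the low value (1.59 and 1.77 in replicate 1, 4.94 and 4.68 in replicate 2). Averaged over both orders the N pair was 3.85 ± 1.14 (SD, n = 2), with replicates at 3.04 and 4.66 that lie on either side of those of the Jerala_P pair, at 3.43 and 3.60.

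Pairs between series covered the same range as pairs within a series. P5A with N6 had the highest mean of the 18 pairs, at log2 enrichments of 4.57 and 5.59, from 1261 to 21887 and from 572 to 34128 reads. P6A with Jerala_P5 followed the PA pair closely, at 4.98 and 5.09, from 2152 to 49707 and from 1628 to 68555 reads. N5 with Jerala_P6 was at 4.70 and 4.81, and N5 with P6A at 3.95 and 5.59. The lowest mean belonged to Jerala_P5 with P6A, at 4.12 and 2.21, from 1804 to 23003 and from 761 to 4339 reads. Its technical runs again gave like values, 4.15 and 4.09 in replicate 1 and 2.23 and 2.18 in replicate 2. In the order of the 18 means, from 5.08 down to 3.16, 16 of the 17 neighbouring pairs overlapped in their replicates.

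Averaged over both orders and replicates, the 9 combinations ran from P5A and P6A at 4.89 through P5A and N6 (4.83), Jerala_P5 and N6 (4.62), N5 and P6A (4.49), P5A and Jerala_P6 (4.48), N5 and Jerala_P6 (4.43), Jerala_P5 and P6A (4.10) and N5 and N6 (3.85) to Jerala_P5 and Jerala_P6 at 3.52, all on the log2 enrichment scale. So 2 of the 3 combinations within a series had the lowest means in the Coiled pool and the third the highest. The AnBn, NICP, N and PA pool repeated this in part. P5A and P6A were highest there at 5.67, but N5 and N6 stood at 5.17. The lowest was N5 and Jerala_P6 at 2.95, followed by Jerala_P5 and Jerala_P6 at 3.18. In the Coiled pool, swapping the order moved the mean by a median of 0.61 between series and 0.33 within series, and by at most 1.87, in Jerala_P5 with P6A against P6A with Jerala_P5.

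edgeR's quasi-likelihood test, fitted across 15532 pairs of the Coiled pool, called 16 of these 18 pairs higher after selection at an adjusted p under 0.05. Its log2 change is relative to the bulk of the pairs (median of all pairs 0.05), and so is larger than the log2 enrichment. For the 16 pairs it ran from 5.87 for Jerala_P5 with Jerala_P6 to 7.47 for P6A with P5A, with edgeR adjusted p from 0.0339 to 0.0457. The pairs that did not pass were Jerala_P5 with P6A (edgeR log2 change 6.09 ± 1.31 SE, adjusted p 0.141) and N6 with N5 (6.09 ± 1.22 SE, adjusted p 0.134), the 2 whose replicates lay farthest apart. In all, 22 of the 1496 tested pairs with a member were called higher (1608 are in the pool), which is 1.47%, and none lower. Over the whole pool 0.972% of pairs were called higher. At an unadjusted edgeR p under 0.05, 155 pairs with a member were higher and 169 lower. The share of all pairs at that cut was not computed, so these counts do not set the members apart from the pool. DESeq2 called 201 pairs with a member higher (13.4%) and 30 lower (2.01%), against 12.9% and 2.24% of all pairs.

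The calls depended on single libraries. Without the library before selection of either replicate edgeR lost nearly all calls over the whole pool, those on pairs of a 5 with a 6 included. With either after-selection library left out, calls rose over the whole pool, with the 18 pairs among them. Each of these fits leaves a group with a single library, so its calls do not set the 18 pairs apart from the pool. Scaling by library size alone called all 18 pairs of a 5 with a 6, 42 pairs with a member higher (2.81%) and 817 lower (54.6%), against 3.26% and 55.7% of all pairs.

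The second question was whether peptides of the same number pair with each other. The 12 ordered pairs of 1 number between different series had a median log2 enrichment of -1.45, and 1 of them was above 0 in both replicates. The 5 homodimers with enough reads had a median of 0.23, and none was above 0 in both replicates. edgeR called none of these 17 pairs (adjusted p from 0.151 to 0.582). At an unadjusted edgeR p under 0.05, 3 of the 17 were higher and 1 lower, with the share of all pairs at that cut not computed. DESeq2 called 6 of them higher, with 12.9% of all pairs called, and edgeR also called 6 with either after-selection library left out (23.5% and 24.8% of all pairs). The highest mean among them was 1.34, below the lowest mean of a 5 with a 6, at 3.16. The difference between the median of the 5 with 6 pairs and that of the same-number pairs was 6.19 in replicate 1 and 5.53 in replicate 2.

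**Figure D2:**
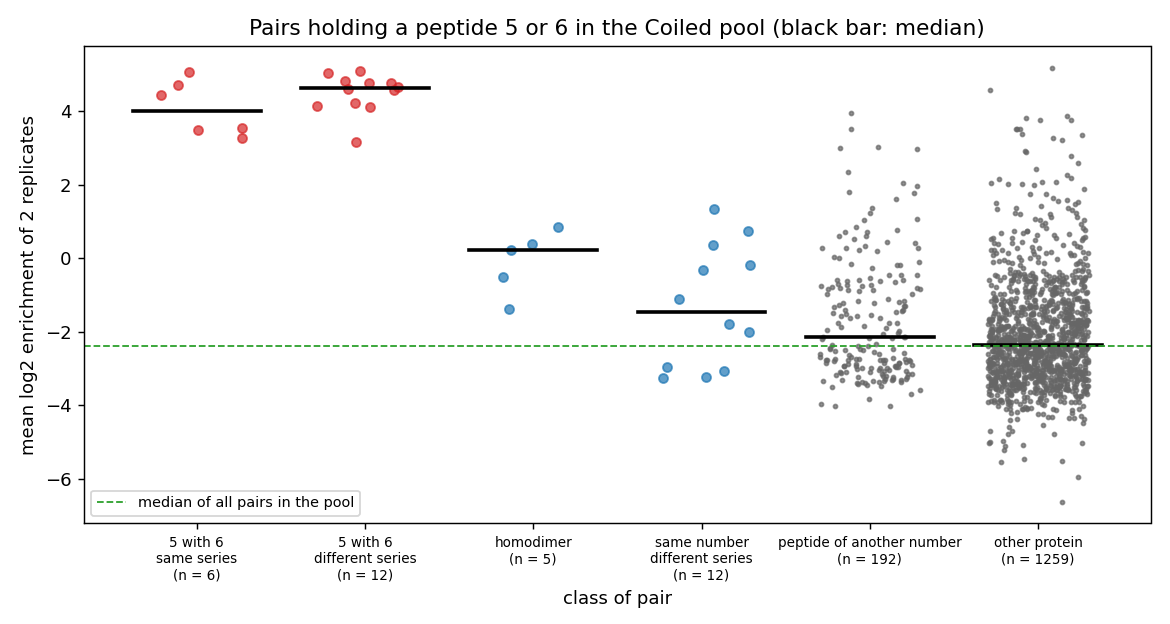
Mean log2 enrichment over 2 replicates (y axis) for every pair of the Coiled pool that holds a peptide 5 or 6 and had at least 10 reads before selection in both, by class of pair (x axis), with the median of each class as a black bar. Pairs of a 5 with a 6 lie between 3.16 and 5.08, above all homodimers and same-number pairs, while a few pairs with other proteins reach the same height.

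Most homodimers had few reads before selection. P5A with P5A had 1 read before selection in each replicate of the Coiled pool and 0 in the AnBn, NICP, N and PA pool, and is not evaluated. P6A with P6A had 102 and 10 reads before selection and N6 with N6 83 and 14, against 572 to 3086 for the 18 pairs of a 5 with a 6. Their log2 enrichments were -1.11 and 1.85 for P6A and -0.73 and 1.18 for N6. Jerala_P5 with itself was better covered, with 785 and 789 reads, and gave -0.15 and -0.88. Jerala_P6 with itself gave -1.94 and -0.84 (63 reads before selection in replicate 2).

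Several same-number pairs were high in 1 replicate alone. With N5 as the column protein, all 3 peptides numbered 5 were high in replicate 1 and below 0 in replicate 2. N5 with N5 gave 3.45 and -1.78, from 566 to 4527 and from 296 to 106 reads. P5A with N5 gave 3.13 and -0.45, and Jerala_P5 with N5 gave 2.40 and -2.81, from 2842 to 11005 and from 1706 to 300 reads. Over the 122 partners of N5 as a column protein outside the 6 peptides, the median was -3.04 in replicate 1 and -2.54 in replicate 2. Of these partners 21 were above 0 in each replicate but 9 (7.38%) in both, against 6.08% of all pairs in the pool.

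Among the 6s, P6A with N6 was high in replicate 1 (3.28, from 1696 to 12058 reads) and low in replicate 2 (-2.58, from 923 to 190 reads). N6 with P6A did the opposite, at -3.04 and 2.41. Of the 12 same-number pairs between series, 6 differed by more than 2 on the log2 scale between replicates, against 1 of the 18 pairs of a 5 with a 6 and 3409 of the 15285 pairs of the pool. For the 33 pairs with enough reads in every technical run, the runs of 1 replicate differed by a median of 0.13 and by at most 1.42. The source of the gaps between replicates was not tested.

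**Figure D3:**
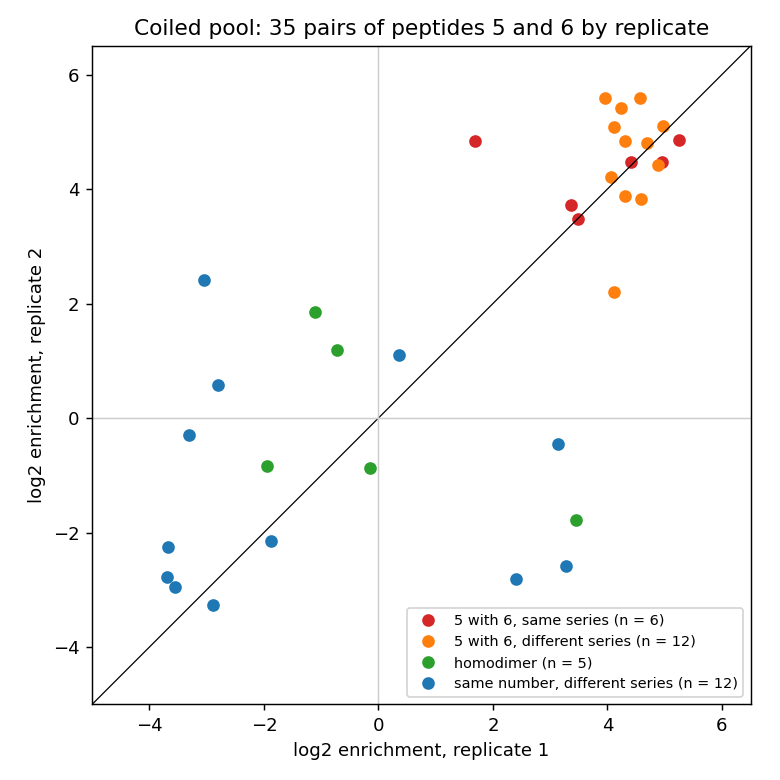
Log2 enrichment in replicate 1 (x axis) against replicate 2 (y axis) of the Coiled pool for the 35 evaluated pairs among the 6 peptides, coloured by class, with the line of equal values. The 18 pairs of a 5 with a 6 gather in the upper right corner, and same-number pairs such as P6A with N6 (3.28 and -2.58) scatter far from the line.

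One same-number pair was above 0 in both replicates, and in 1 order alone. Jerala_P5 with P5A was at 0.35 and 1.09, from 3282 to 3067 and from 1949 to 5134 reads, whereas P5A with Jerala_P5 was at -3.55 and -2.96. edgeR did not call either (log2 change 3.08 ± 0.89 SE, adjusted p 0.187, and -0.89 ± 0.41 SE, adjusted p 0.296). In the AnBn, NICP, N and PA pool the order was the other way round: Jerala_P5 with P5A was at -3.81 and P5A with Jerala_P5 at 0.29.

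The AnBn, NICP, N and PA pool is a separate library with the same 6 peptides among 38 proteins, and most pairs of a 5 with a 6 were high there too. It has 1 library before and 1 after selection, so its values carry no test, and the 95% exact intervals given here cover counting error only. The median log2 enrichment was 5.48 for the 6 pairs of a 5 with a 6 within a series and 5.37 for the 12 pairs between series, against -3.66 for all 1414 pairs with enough reads. Of the 18 pairs 17 were above 0, against 9.69% of all pairs in the pool. The 18 pairs made up 0.488% of the reads before selection and 20.4% after it. The 12 same-number pairs between series had a median of -3.01, and Jerala_P5 and N5 with themselves were at -4.03 and -2.29, so neither evaluated homodimer reached 0.

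Jerala_P5 with Jerala_P6 was the most enriched of the 1414 pairs in that pool, from 216 to 22836 reads, a log2 enrichment of 6.64 (95% exact interval 6.45 to 6.85). In the other order Jerala_P6 with Jerala_P5 went from 271 to 236 reads, -0.28 (95% exact interval -0.54 to -0.02), the lowest of the 18. P5A with P6A was at 6.03, from 4939 to 339642 reads, and P6A with P5A at 5.32. N5 with N6 was at 5.64 and N6 with N5 at 4.70.

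Another 2 of the 18 pairs stood low in that pool, and both join N peptides to Jerala_P peptides. N5 with Jerala_P6 was at 0.27, from 1779 to 2264 reads, while Jerala_P6 with N5 was at 5.63, from 1563 to 81523 reads. N6 with Jerala_P5 was at 2.41, from 655 to 3686 reads, while Jerala_P5 with N6 was at 5.02. In the Coiled pool these 4 pairs had lain between 4.10 and 4.75, with no such gap between the orders. Across the 32 ordered pairs evaluated in both pools, the values correlated with Pearson's r of 0.83 and Spearman's rho of 0.68. Within the 18 pairs of a 5 with a 6 these were 0.02 and -0.17. The pairs share the 6 proteins and the strain, and the correlations are descriptions with no test. The classes overlapped in single libraries: 1 same-number pair of the AnBn, NICP, N and PA pool (P5A with Jerala_P5, 0.29) lay above the lowest pair of a 5 with a 6 (-0.28), and in the Coiled pool 4 same-number pairs or homodimers did so in replicate 1 and 1 in replicate 2, but none by the mean.

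The pair of the Jerala_P series can be followed through every pool. In the NCIP pool, where the 12 Jerala_P peptides compete alone, Jerala_P5 with Jerala_P6 went from 1669 to 21659 reads in replicate 1 and from 2184 to 5295 in replicate 2 at 2 mM 3-AT, log2 enrichments of 3.45 and 1.46. At 10 mM it ended at 6755 and 1190 reads, 1.92 and -1.14. Jerala_P6 with Jerala_P5 was at 0.84 and -5.85 at 2 mM, ending at 3625 and 22 reads, and at -1.55 and -4.91 at 10 mM. The medians of all pairs in these libraries were -3.82 and -6.56 at 2 mM and -4.63 and -5.11 at 10 mM. Jerala_P5 with Jerala_P6 stood above these medians in all 4 comparisons, and the other order was far above them in replicate 1 and close to them in replicate 2.

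edgeR, fitted across all pairs of the NCIP pool, called none of the 43 tested pairs with Jerala_P5 or Jerala_P6 at either concentration. Over the pool 5.76% of pairs were called higher at 2 mM and 3.6% at 10 mM, and 0% between 10 mM and 2 mM. At an unadjusted edgeR p under 0.05 there was 1 member pair at each concentration, Jerala_P5 with Jerala_P6, and none between the concentrations. The share of all NCIP pairs at that cut was not computed. The edgeR log2 change of Jerala_P5 with Jerala_P6 was 7.52 ± 2.01 (SE) at 2 mM with an adjusted p of 0.0671, and 5.32 ± 1.82 (SE) at 10 mM with an adjusted p of 0.218. Between 10 mM and 2 mM it was -2.20 ± 1.58 (SE, edgeR adjusted p 0.976). That fit did not pair the replicates, although same-numbered libraries deviated alike between the concentrations (correlation 0.79). The log2 enrichment of Jerala_P5 with Jerala_P6 fell in both replicates, from 3.45 to 1.92 and from 1.46 to -1.14. With a replicate block edgeR also called 0 pairs of the pool between the concentrations. DESeq2 called 3 of 43 member pairs at 2 mM, where it called 15.1% of all pairs, and 4 of the 9 with an adjusted p at 10 mM, where it called 45.9% of the 37 such pairs, Jerala_P5 with Jerala_P6 among them at both. With either after-selection library at 2 mM left out edgeR called that pair too, at adjusted p of 0.0335 and 0.0480, with 9.35% and 7.19% of all pairs called.

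Of the 12 ordered pairs of an odd peptide with its even neighbour in that pool, Jerala_P5 with Jerala_P6 was the ninth by mean log2 enrichment at 2 mM and Jerala_P6 with Jerala_P5 the last, at -2.50. The others ran from -1.77 to 5.52. In the medium with histidine, before selection, the orders differed too. From 24 h to 60 h of outgrowth the share of Jerala_P5 with Jerala_P6 changed by -0.64 on the log2 scale, that of the other order by -0.04 and that of Jerala_P5 with itself by 0.62, against a median of -0.05 over all pairs, each from 1 library.

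In the NICP and mALb T pool both orders were enriched: Jerala_P5 with Jerala_P6 went from 220 to 5264 reads, 4.77 (95% exact interval 4.59 to 4.98), and Jerala_P6 with Jerala_P5 ended at 1237 reads, 3.16 (95% exact interval 2.93 to 3.42). Of all pairs in that pool, 8.04% lay above 0. Among the 12 ordered Jerala_P pairs of an odd peptide with its even neighbour there, from 3.16 to 5.46, these orders took places 8 and 12. In the mALb R pool Jerala_P5 with Jerala_P6 went from 171 to 10263 reads, 5.94 (95% exact interval 5.73 to 6.18), first among 7092 pairs, while the other order had 1 read before selection and none after, and cannot be evaluated. Wherever both orders were measured outside the Coiled pool, Jerala_P5 as the row was the higher one: by 4.96 (2 mM) and 3.62 (10 mM) among the NCIP peptides, by 1.61 in the NICP and mALb T pool and by 6.92 in the AnBn, NICP, N and PA pool. In the Coiled pool the difference was -0.05.

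**Figure D4:**
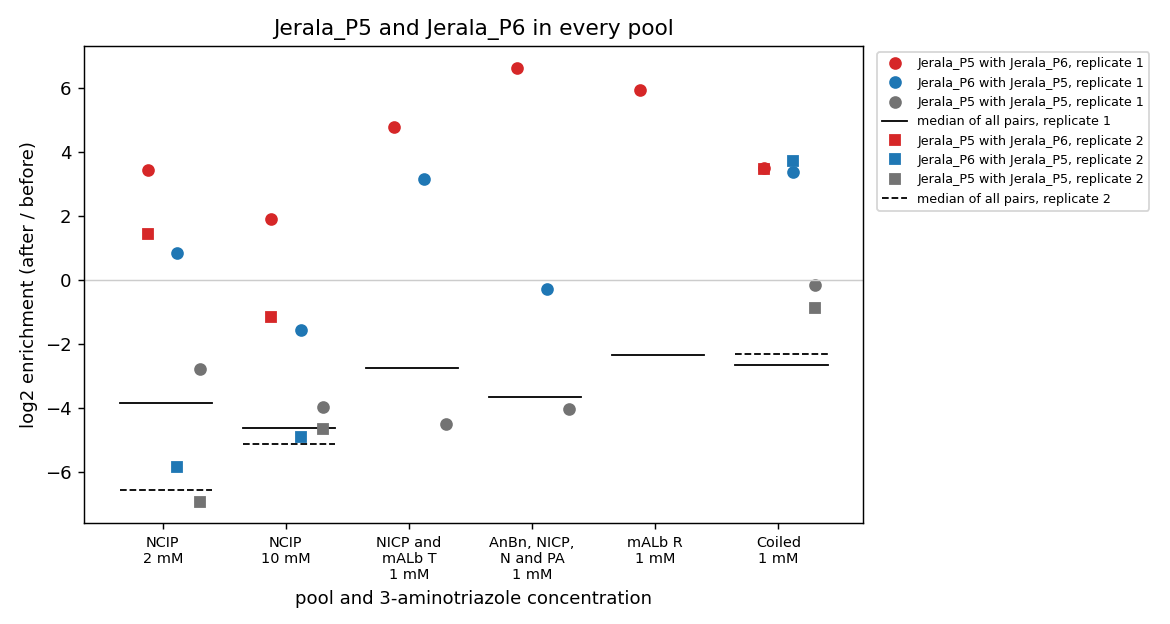
Log2 enrichment (y axis) of Jerala_P5 with Jerala_P6, Jerala_P6 with Jerala_P5 and Jerala_P5 with itself in each pool (x axis), one point per replicate with at least 10 reads before selection, with the median of all pairs of each library as a line. Jerala_P5 with Jerala_P6 lies above that line in all pools and replicates, and the other order comes close to it in replicate 2 of the NCIP pool.

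Beyond the 6 peptides, most partners had values below 0. In the Coiled pool the 192 pairs of a member with a peptide of another number had a median log2 enrichment of -2.16, of which 14 (7.29%) were above 0 in both replicates, and the 1259 evaluated pairs with all other proteins had a median of -2.36, of which 55 (4.37%) were. Over all pairs of the pool the share was 6.08%, so these counts are near the background. The third question was which of these partners recurred. Of the 22 pairs that edgeR called, 6 had a partner outside the 6 peptides, which is 0.411% of the 1461 such pairs tested and below the 0.972% of the whole pool.

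Row N1 was the most constant partner. N1 belongs to the N series, where its even neighbour is N2. As the row it was above 0 with all 6 members in both replicates of the Coiled pool, with means from 2.34 with Jerala_P6 to 3.95 with N5, and in the AnBn, NICP, N and PA pool with values from 3.38 to 4.77. Row N1 was also high with proteins outside the 6. With 121 other partners row N1 had a median of 2.85, and 111 of them were above 0 in both replicates. In the AnBn, NICP, N and PA pool its median with 32 other partners was 4.34. As the column protein N1 was below 0 with 5 of the 6 in both replicates, at means from -3.17 with Jerala_P5 to -1.34 with N5. The sixth, N6 with N1, was at -3.40 and 3.09.

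AN4 and BN4, peptides of the AnBn series, recurred with N5 and N6, in both orders except for AN4 and N6. AN4 with N5 was at 2.66 and 3.77, from 4799 to 22178 and from 2810 to 47203 reads, and edgeR called it (log2 change 5.60 ± 0.55 SE, adjusted p 0.0428). N5 with AN4 was at 3.85 and 2.82. N6 with BN4 was at 3.68 and 3.83, and BN4 with N6 at 3.62 and 2.23. In the AnBn, NICP, N and PA pool these 4 pairs were at 3.84, 3.50, 3.88 and 3.26. Both combinations were thus above 0 in both orders and both pools. So was N5 with BN4, less evenly, at 0.15 and 4.01 and at 2.22 and 1.04 with BN4 as row, and at 0.43 and 2.57 in the AnBn, NICP, N and PA pool. AN4 with N6 was at 3.62 and 1.95, and at 0.59 in that pool. In the other order, N6 with AN4 was at -3.62 and -2.01, and at -3.14 in that pool. AN4 as row had a median of -0.68 with its 127 other partners in the Coiled pool and BN4 of -1.50. Of these partners 14 and 19 were above 0 in both replicates, and as columns 6 of 118 and 13 of 119, against 6.08% of all pairs. In the AnBn, NICP, N and PA pool 9.69% of all pairs were above 0. Of 32 other partners there, 9 of row AN4 and 4 of row BN4 were, and 4 and 6 with AN4 and BN4 as columns.

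With the other members, AN4 differed between the orders. As row, AN4 was above 0 with P5A (2.86 and 2.30, and 2.55 in the AnBn, NICP, N and PA pool), with Jerala_P5 (0.85 and 1.36, and 0.07) and with P6A (0.64 and 1.83, but -0.09). As column it was below 0 with all 3 in the Coiled pool, at -0.88 and -2.02 with P5A, -2.42 and -2.54 with Jerala_P5 and -2.50 and -2.61 with P6A. Jerala_P6 with AN4 was at 2.21 and 2.14 in the Coiled pool but at -3.67 in the AnBn, NICP, N and PA pool. BN4 with Jerala_P5 was at -3.38 and -3.46. P6A with BN4 was at 3.63 and 2.90, and in the AnBn, NICP, N and PA pool at 0.76.

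**Figure D5:**
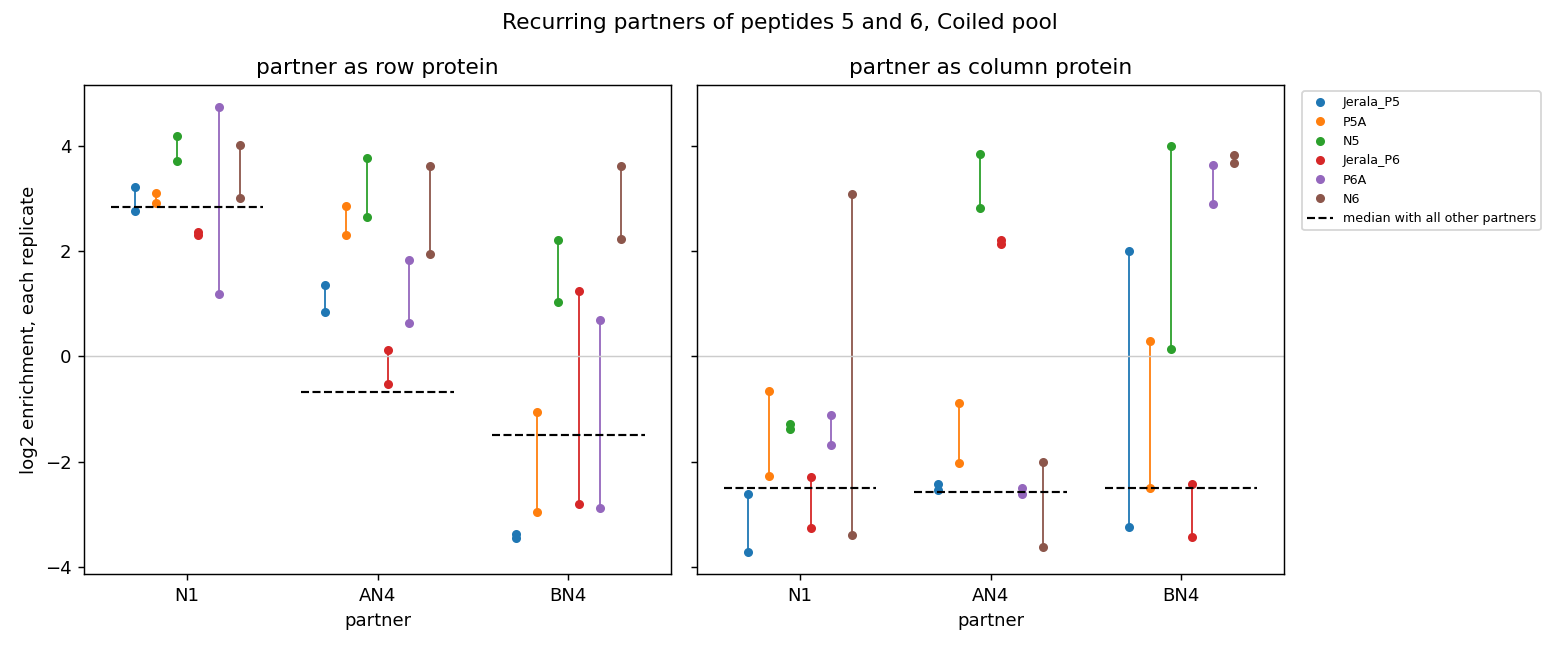
Log2 enrichment in each replicate of the Coiled pool (y axis) of N1, AN4 and BN4 (x axis) with each of the 6 peptides, as row protein on the left and as column protein on the right, with replicates joined by a line and the median over all other partners dashed. Row N1 lies around its dashed line of 2.85 with the 6, P6A having the widest replicates, whereas AN4 stands above its line with N5 in both panels and BN4 with N6.

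Other recurring partners were B chains of mALb8x designs, whose names give an A and a B chain. Among the 6 members, the highest values of the mALb8x12j forms in the Coiled pool were with peptides numbered 5 as rows. In the files these names open with a design number, which is not printed here. P5A with the rprtc form of mALb8x12j was at 5.43 and 4.92, from 1844 to 58373 and from 1140 to 42720 reads, with a mean of 5.18 just above the highest mean of a 5 with a 6 (5.08) although several of those pairs were higher in replicate 2, and edgeR called it (log2 change 7.60 ± 0.59 SE, adjusted p 0.0339). P5A with the fdrtc form of mALb8x12j was at 4.45 and 4.67 and N5 with the same fdrtc form at 3.67 and 4.03, both called (edgeR log2 change 6.92 ± 0.70 SE, adjusted p 0.0441, and 6.21 ± 0.64 SE, adjusted p 0.0445). As columns these B chains had medians of -0.33 and -1.72 with 116 other partners each. Of these partners 33 and 20 were above 0 in both replicates, against 6.08% of all pairs in the pool. The highest outside partner of row Jerala_P5 was the fdrtc form of mALb8x12, at a mean of 3.36 in the Coiled pool (not called, edgeR log2 change 5.74 ± 0.97 SE, adjusted p 0.106) and at 4.60 in the mALb R pool, from 61 to 1463 reads. In the swapped order values were lower, at 0.22 for the rprtc form and 0.55 for the fdrtc form of mALb8x12j with P5A as column.

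The remaining called pairs were the B chain of IL8_2Hx1 with P6A, at 3.77 and 3.85 (edgeR log2 change 6.18 ± 0.68 SE, adjusted p 0.0456), and Jerala_P6 with the rprtc form of mALb8x12, chain B, at 1.83 and 2.47 from 83 and 46 reads (4.50 ± 0.36 SE, adjusted p 0.0339). The other partners that led on some side of a member in the Coiled pool were Jerala_P10 with row Jerala_P5, BW3_B with row Jerala_P6, Jerala_P7 with column P5A, mALb8_cutT1_B with column N5, N7 with row N6, the B chains of the fdrtc form of mALb8x2 with row P5A and column P6A and of its rprtc form with row N5, and a PUMA variant each with column Jerala_P5 and row N6, the highest of these means being 3.75. In the NCIP pool no partner outside the pair was above 0 in both replicates at either concentration. Some were high in 1 replicate there, such as Jerala_P11 with Jerala_P5, and edgeR called none of them. DESeq2 called Jerala_P11 with Jerala_P5 at both concentrations and Jerala_P9 with Jerala_P5 at 2 mM. At 10 mM it also called Jerala_P10 with Jerala_P6 and Jerala_P6 with Jerala_P9. It called 15.1% of all pairs at 2 mM and 45.9% of the 37 with an adjusted p at 10 mM.

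In the pools with 1 library per condition, most leading partners were those already named. In the AnBn, NICP, N and PA pool row N1 led with all 6 members as columns, and row AN4 came next with Jerala_P5 (0.07), P5A (2.55) and N5 (3.84) on the log2 enrichment scale. N6 with N2 was at 3.44, Jerala_P5 with Jerala_P10 at 2.45 and Jerala_P11 with N6 at 2.23 there, while N2 with N6 was at -3.60. In the NICP and mALb T pool the leading partners stayed below both orders of the Jerala_P pair, from IL8_A with row Jerala_P5 (0.46) to Jerala_P10 with row Jerala_P6 (1.38). In the mALb R pool Jerala_P5 with the rprtc form of mALb8x12j, chain B, was at 3.41 and with the fdrtc form at 0.54. The fdrtc form as row with Jerala_P6 was higher there, at 1.75, from 891 to 2920 reads.

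Over all partners, the profiles of the 6 peptides in the Coiled pool were compared on each side. Between members Spearman's rho ran from 0.16 (rows N5 and N6) to 0.41 (columns P6A and N6). How well a profile correlates with itself between replicates is not given here, so these values do not show how unlike the peptides are. For each member and side, the protein with the most similar profile had a Spearman correlation of 0.35 to 0.51 over 58 to 125 shared partners, among up to 124 proteins compared. It was never another of the 6 in the first place. The second place was held by Jerala_P5 for row N5 (0.40) and by N6 for column P6A (0.41). These are correlations across partners in the same libraries, given as descriptions.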

How the data were processed

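The deposited matrices hold counts of barcode pairs, raw and without normalization per the file headers and values. The submitters' processing notes name DESeq2. Read alignment and barcode matching are not given in the sources used here. Blank cells were taken as 0 reads, and barcodes came from the authors' deposited barcode maps, a table of sequences and not of measurements (no count or other score was read from it). Of 36 libraries, 22 were used.

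Log2 enrichment was computed with a pseudocount of 1 read and the library total, keeping pairs that had 10 reads or more in the His+ library. edgeR 4.0.16 (TMM, quasi-likelihood, robust; R 4.3.3) was fitted across all pairs averaging at least 10 reads per library, with Benjamini-Hochberg adjustment at 0.05. DESeq2 1.42.0 was an alternative. Technical runs were summed. The labels name biological replicates without saying what was cultured apart. One read was worth 0.0444 to 0.0693 RPM before selection in the Coiled pool and 2.49 to 2.70 RPM in the NCIP pool. Intervals are exact, at 95%, and cover counting error only, since reads are not independent molecules.

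The peptides and lists were chosen with earlier results of these data known. All 36 ordered pairs among the 6 peptides are covered. Other named partners are, per pool, member and side, up to 3 with the highest mean log2 enrichment among those above 0 in every replicate. Same-numbered libraries share a library set per the labels, and their deviations correlated at 0.16 (NCIP 2 mM), 0.14 (10 mM), 0.79 (10 over 2 mM) and 0.23 (Coiled). On simulated counts, edgeR recovered 66.5% of 200 pairs raised by a log2 of 4 in the Coiled pool and 30% of 20 in the NCIP pool, and all raised by 8. False calls numbered 5 and 6 in the Coiled pool and 1 and 0 in the NCIP pool. The simulation gave every pair of a pool the same spread and left the other pairs unchanged. The real replicates were less even, so these rates do not give the power on the real counts.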

Additional observations from a re-analysis of the deposited data

How the results depend on the processing

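Of the 16 pairs of a 5 with a 6 called in the Coiled pool, all 16 remained called with library size alone, DESeq2, no filter, a filter of 50 reads, 1 technical run and a replicate block; this count was chosen after seeing the data. It was 0 to 18 with 1 library left out, 0 without either library before selection. Pairs with a member called higher numbered 22, then 42 with library size alone (817 lower), 201 with DESeq2 (30 lower), 24 with the replicate block (1 lower) and 0 to 421 with 1 library left out. In the NCIP pool the 0 calls became 3 (2 mM) and 4 (10 mM) with DESeq2, of 21 and 17 over all pairs. The replicate block called 0 pairs with a member higher, and at 10 mM 1 lower, of 2 over all pairs. Library size alone also called 0 higher there, but 32 pairs with a member lower at each concentration. Over all pairs of that pool it called 92 lower at 2 mM and 97 at 10 mM. Without the 2 mM library of replicate 1 or 2, the edgeR log2 change of Jerala_P5 with Jerala_P6 was 8.11 or 6.71.

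Subtracting each library's median raised the Coiled medians to 6.44 (5 with 6 within series), 7.08 (between series), 1.94 (same number, homodimers included, -0.52 before) and 0.30 (other numbers), and the NCIP values to 7.65 and 2.69 (2 mM, Jerala_P5 and Jerala_P6 as row) and 5.26 and 1.64 (10 mM). Single-replicate medians were 3.95 to 4.48, 4.31 to 4.82, -1.88 to -0.88 and -2.64 to -2.33. For the 17 same-number pairs with homodimers, the median of -0.52 became -1.31 in the first technical run alone and -1.11 with at least 50 reads before selection. NCIP values by replicate were 1.46 to 3.45 and -5.85 to 0.84 at 2 mM, and -1.14 to 1.92 and -4.91 to -1.55 at 10 mM. In the single-library pools, pseudocounts of 0.5 and 5 reads moved the 21 values by -0.033 to 0.0041. Depth limits the homodimers of P5A, P6A and N6, which had at most 102 reads before selection.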
